A study of Mus musculus with 20 samples.

Results

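The genes Btg2, Sesn1, Sesn2, Perp, Trp53inp1 and Gdf15 are targets of p53, 6 of the 55486 genes in the count tables, and were followed in kidney and bone marrow of mice given oxaliplatin. They were selected on these same data as targets whose response to the drug differed between the 2 tissues in sign or in size. Their treatment responses and the difference of those responses between tissues are therefore given as a description, with no test. The comparison of the tissues in vehicle-treated mice and the relation of each gene to marker genes among mice of one group were not used in that choice and were tested, as were other p53 targets. The vehicle libraries themselves did enter the choice, as controls.

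C57BL/6 mice that were 10 weeks old at the start received either 10 mg/kg oxaliplatin in 5% dextrose or 5% dextrose alone, intraperitoneally, over 8 weeks. There were 5 libraries each of vehicle kidney, oxaliplatin kidney, vehicle bone marrow and oxaliplatin bone marrow, 20 in all, and the sources name no engineered allele. The methods describe male and female mice, and all 20 libraries held reads of Y-linked genes. Bone marrow was spun out of the femur and the tibia when 6 days had passed since dosing ended, so it was a mixture of cell types, and its RNA was extracted with Trizol before the column used for kidney. Tissue and extraction thus cannot be told apart. Whether a kidney and a bone marrow library of the same number came from 1 mouse is not given in the sources used here, and mice are numbered within each group only. Libraries of the tissues were fitted as independent.

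Total counts per library lay between 24393007 and 30925430 in kidney and between 30660153 and 41140527 in bone marrow. The labelled tissues matched their markers. Summed over 12 proximal tubule markers, kidney libraries held 17200 to 33000 CPM (counts scaled to the size of the library). The same 12 markers summed to 644 to 1020 CPM in vehicle marrow and 106 to 226 CPM in oxaliplatin marrow. All 14 neutrophil markers together summed to 11800 to 33000 CPM in bone marrow but to no more than 12.7 CPM in kidney. There Elane, Mpo and Ctsg had at most 3 counts in any library. In bone marrow, oxaliplatin changed the cell markers widely. All 19 late erythroid markers fell (summed CPM 14300 to 20000 with vehicle and 2560 to 4660 with oxaliplatin) and 14 of 16 B cell markers fell (541 to 952 and 145 to 230 CPM), while 0 of 14 neutrophil markers were called by edgeR or by DESeq2 (1 at an unadjusted p under 0.05). In kidney, 4 of 12 proximal tubule markers fell and 4 of 10 tubular injury markers rose. Over all genes tested, 11.6% were called higher and 11.8% lower in bone marrow, and 7.68% higher and 3.81% lower in kidney. In bulk RNA, fewer cells of a type and less RNA per cell cannot be told apart.

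The transcription factor p53 is stabilised when DNA is damaged, as it is by platinum crosslinks, and it raises transcription of genes that halt the cell cycle, repair DNA, restrain growth or trigger cell death. Many of its targets also answer to other regulators, such as ATF4 in nutrient and protein stress, FOXO factors when growth signals fade, and the serum and growth factor signals that drive immediate early genes. The 6 genes stand at different points of this network. BTG2 restrains proliferation and recruits the deadenylase that shortens mRNA tails. Sestrin 1 and sestrin 2, encoded by Sesn1 and Sesn2, restrain the growth kinase mTORC1 and limit oxidative stress. PERP is a tetraspan membrane protein of epithelial junctions and of p53-dependent apoptosis, TP53INP1 is a nuclear and autophagy-related cofactor of p53, and GDF15 is a secreted stress hormone that acts on the hindbrain receptor GFRAL to lower appetite.

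In the GENCODE M21 annotation of GRCm38, Btg2 (ENSMUSG00000020423) lies on the minus strand at chr1:134075170-134079120 and Gdf15 (ENSMUSG00000038508) on the minus strand at chr8:70629393-70632456. Sesn1 (ENSMUSG00000038332, plus strand, chr10:41809935-41908424) and Perp (ENSMUSG00000019851, plus strand, chr10:18845020-18857073) share chromosome 10. Sesn2 (ENSMUSG00000028893, minus strand, chr4:132492032-132510501) and Trp53inp1 (ENSMUSG00000028211, plus strand, chr4:11156431-11174379) share chromosome 4. RefSeq promoters on GRCm38.p6 were found for 4 of the 6 genes, in 6 windows. The sequences below are shown because Btg2 was the gene whose groups separated in opposite directions in the tissues. The inner Sesn1 start was the only window with a p53 half-site. Each gives the 250 bases before an annotated start, 5′ to 3′ on the gene's strand. Capitals mark the cyclic AMP response element (CRE) TGACGTCA, the CCAAT box on either strand, and the p53 half-site.
Btg2, chr1:134079156-134079405, minus strand: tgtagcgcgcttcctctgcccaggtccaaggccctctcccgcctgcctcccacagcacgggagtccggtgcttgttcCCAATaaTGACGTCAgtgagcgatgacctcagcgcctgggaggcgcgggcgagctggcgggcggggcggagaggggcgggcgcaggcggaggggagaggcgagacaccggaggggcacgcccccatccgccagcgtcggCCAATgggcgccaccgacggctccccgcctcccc
Sesn1, chr10:41887189-41887438, plus strand: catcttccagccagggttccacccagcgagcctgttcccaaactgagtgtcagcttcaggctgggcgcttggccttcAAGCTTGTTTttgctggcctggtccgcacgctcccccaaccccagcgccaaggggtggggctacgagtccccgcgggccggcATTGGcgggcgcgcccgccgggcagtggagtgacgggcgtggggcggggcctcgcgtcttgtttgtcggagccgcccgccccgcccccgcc

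The Btg2 window, outside every annotated exon of the gene, held 1 CRE at 166 bases and CCAAT boxes at 173 and 34 bases before the start, and no p53 half-site. A CRE occurs in 1.55% and a CCAAT box in 33.8% of the 32851 promoter windows of all genes, each searched on both strands over the 250 bases before the start. The inner Sesn1 window, which lies within the gene and outside its annotated exons, held 1 p53 half-site at 173 bases before the start, a match that 7.13% of all windows share. It held a CCAAT box, read on the other strand, at 91 bases. The other Sesn1 window, the Sesn2 window and both Gdf15 windows held neither a p53 half-site nor a CRE. Btg2 and both Sesn1 windows were rich in G and C (73.2%, 70.0% and 71.2%), against 63.2% for Sesn2, 56.4% for both Gdf15 windows and a median of 52.4% over all promoters. A match of letters is a description and not a bound site.

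Btg2 was the gene whose groups separated in both tissues, in opposite directions. In bone marrow its level was 169.3, 214.9, 184.1, 223.8 and 174.7 CPM in vehicle mice 1 to 5 and 75.93, 83.87, 59.97, 57.64 and 68.87 CPM in oxaliplatin mice 1 to 5. Every treated marrow was thus below every control. The kidney gave the reverse, with 17.95, 16.50, 14.17, 15.50 and 15.79 CPM in vehicle mice and 42.03, 52.79, 26.93, 27.16 and 54.04 CPM in oxaliplatin mice. All 5 treated kidneys stood above all 5 controls, in an upper cluster of 3 and a lower cluster of 2. The log2 fold change was -1.48 ± 0.124 (SE, n = 5 and 5) in bone marrow, which is 2.79-fold lower, and 1.34 ± 0.212 in kidney, which is 2.54-fold higher. Groups that did not overlap in either tissue, with opposite directions, were found for 3.19% of the 17507 genes measured in both.

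**Figure D1:**
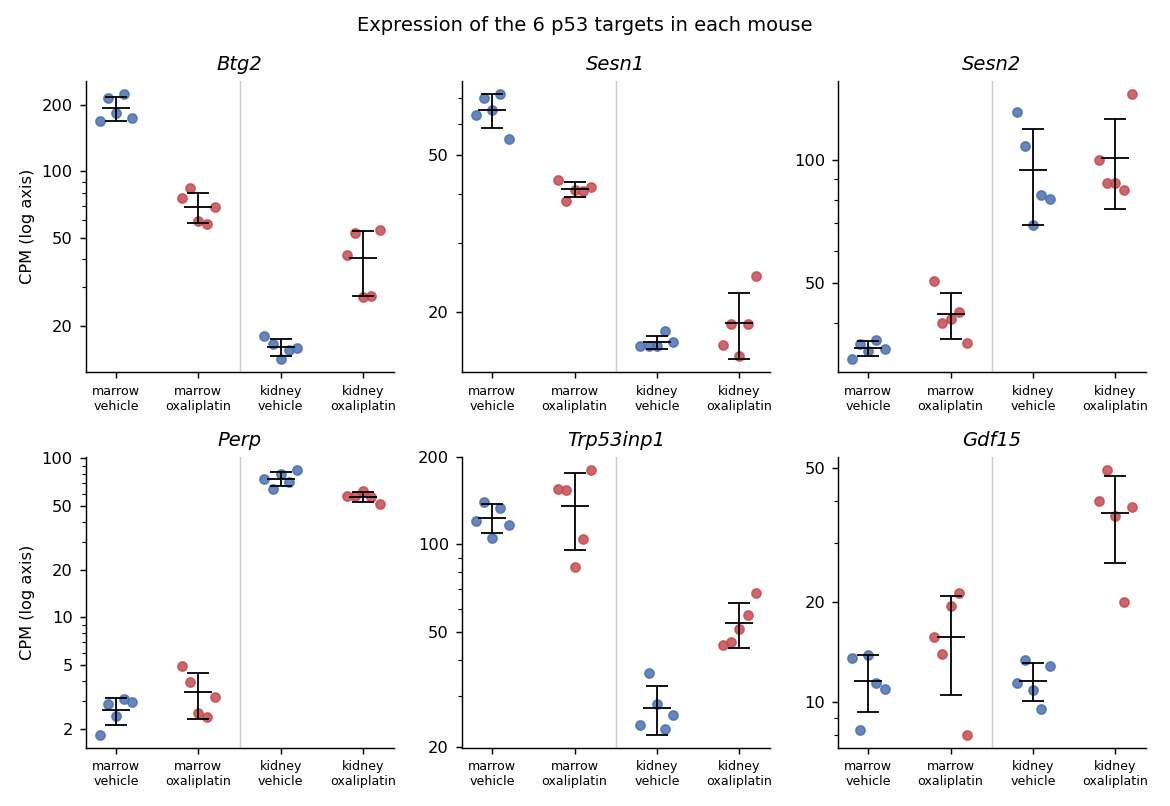
Level of each gene in every library, in CPM on a log axis, for vehicle (blue) and oxaliplatin (red) mice, with black bars for the mean ± SD of 5 mice. CPM were scaled within each tissue, so values are to be compared within a tissue, and Btg2 is the panel in which both tissues separate in opposite directions.

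The sestrins parted from each other in bone marrow. Sesn1 was at 63.43, 69.83, 65.22, 71.43 and 55.04 CPM in vehicle marrow and at 43.38, 38.30, 40.95, 40.64 and 41.67 CPM in oxaliplatin marrow. The treated group lay wholly below the controls and was the tighter of the pair, with an SD of 1.84 CPM against 6.45 CPM. In kidney Sesn1 was at 16.39, 16.46, 16.42, 17.87 and 16.85 CPM with vehicle and 16.47, 18.72, 15.50, 18.63 and 24.67 CPM with oxaliplatin. There the groups overlapped, and treated mouse 5 was the one well above the controls. The log2 fold change of Sesn1 was -0.67 ± 0.0871 in bone marrow and 0.16 ± 0.109 in kidney. Leaving out kidney oxaliplatin mouse 5 brought the kidney value to 0.06.

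Sesn2 did not show the divergence for which it was chosen. In bone marrow it was at 32.63, 35.38, 34.19, 36.31 and 34.57 CPM with vehicle and at 50.58, 39.84, 40.88, 42.44 and 35.72 CPM with oxaliplatin. Treated marrows 1 to 4 exceeded every control, while marrow 5 fell inside their range. In kidney the values were 131.3, 108.4, 69.46, 82.32 and 80.35 CPM with vehicle and 100.3, 87.97, 88.16, 84.73 and 145.0 CPM with oxaliplatin. Both kidney groups were broad and lay over each other. The log2 fold changes, 0.28 ± 0.0969 in bone marrow and 0.10 ± 0.211 in kidney, had the same sign, and their difference in the joint fit was -0.23 ± 0.217. The kidney value was smaller than its SE. It turned to -0.05 without kidney oxaliplatin mouse 5 and to 0.25 without kidney vehicle mouse 1.

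Perp was the gene with a lower level in treated kidney. Its kidney values were 74.17, 64.28, 80.13, 70.68 and 84.64 CPM with vehicle and 57.85, 57.74, 61.98, 57.51 and 51.43 CPM with oxaliplatin. The lowest control was above the highest treated kidney. In bone marrow Perp was scarce, at 1.836, 2.851, 2.395, 3.078 and 2.957 CPM with vehicle (58 to 108 counts per library) and 4.926, 3.949, 2.494, 2.359 and 3.181 CPM with oxaliplatin (106 to 171 counts). Those groups overlapped, with treated mice 1, 2 and 5 above every control. The log2 fold change was -0.38 ± 0.0772 in kidney, which is 1.31-fold lower and short of the 1.5-fold used for calls, and 0.36 ± 0.245 in bone marrow. Without bone marrow oxaliplatin mouse 1 the marrow value was 0.19.

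Trp53inp1 was higher in treated kidney and split in treated marrow. Kidney levels were 23.85, 36.05, 28.04, 23.02 and 25.72 CPM with vehicle and 44.93, 45.89, 50.95, 57.26 and 67.69 CPM with oxaliplatin. The lowest treated kidney (44.93 CPM) was above the highest control (36.05 CPM). Bone marrow levels were 120.7, 140.4, 105.5, 133.8 and 116.8 CPM with vehicle and 154.8, 154.2, 83.55, 104.5 and 180.5 CPM with oxaliplatin. Treated marrows 1, 2 and 5 were above every control and treated marrows 3 and 4 were below every control. The log2 fold change was 0.96 ± 0.137 in kidney (1.95-fold) and 0.13 ± 0.182 in bone marrow, where the mean of 5 stood between mice that lay on opposite sides. The marrow value ranged from 0.04 without oxaliplatin mouse 5 to 0.27 without oxaliplatin mouse 3.

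Gdf15 had the largest kidney difference of the 6 genes. It was at 11.42, 13.34, 10.89, 9.54 and 12.84 CPM in vehicle kidney and 39.87, 49.49, 36.03, 19.96 and 38.47 CPM in oxaliplatin kidney. Mouse 4 was the lowest treated kidney and still exceeded every control. In bone marrow the values were 13.55, 8.234, 13.80, 11.43 and 10.92 CPM with vehicle and 15.67, 13.92, 19.39, 21.16 and 8.006 CPM with oxaliplatin. Treated marrows 1 to 4 were above all controls, whereas mouse 5 was the lowest of the 10. The log2 fold change was 1.66 ± 0.21 in kidney (3.17-fold) and 0.43 ± 0.23 in bone marrow. Without oxaliplatin marrow 5 the marrow value was 0.64.

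Counted by the rule used for all genes, an adjusted p under 0.05 and a change beyond 1.5-fold, 2 of the 6 genes were called in bone marrow (Btg2 and Sesn1, both lower), where 23.3% of 22363 genes were called, 11.6% higher and 11.8% lower. In kidney 3 were called (Btg2, Trp53inp1 and Gdf15, all higher), where 11.5% of 19293 genes were called, 7.68% higher and 3.81% lower. Groups did not overlap for 2 of the 6 in bone marrow, against 24.9% of all genes, and for 4 of the 6 in kidney, against 20.7%. Since the genes were chosen on these contrasts, nothing is read from those counts.

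The difference of responses, the kidney log2 fold change minus the bone marrow log2 fold change, came from a single fit of all 20 libraries and so reuses the libraries of both comparisons. It was 2.77 ± 0.235 for Btg2, 1.16 ± 0.329 for Gdf15, 0.78 ± 0.225 for Trp53inp1, 0.77 ± 0.141 for Sesn1, -0.23 ± 0.217 for Sesn2 and -0.79 ± 0.214 for Perp. By sign and by whether groups overlapped, the 6 genes made different patterns. Btg2 had separated groups of opposite direction. Sesn1 separated in bone marrow, Trp53inp1, Gdf15 and Perp separated in kidney, and Sesn2 separated in neither tissue. Differences of responses passed the call rule for 23.7% of 24321 genes and for 5 of these 6, all but Sesn2, and nothing is read from that count either.

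**Figure D2:**
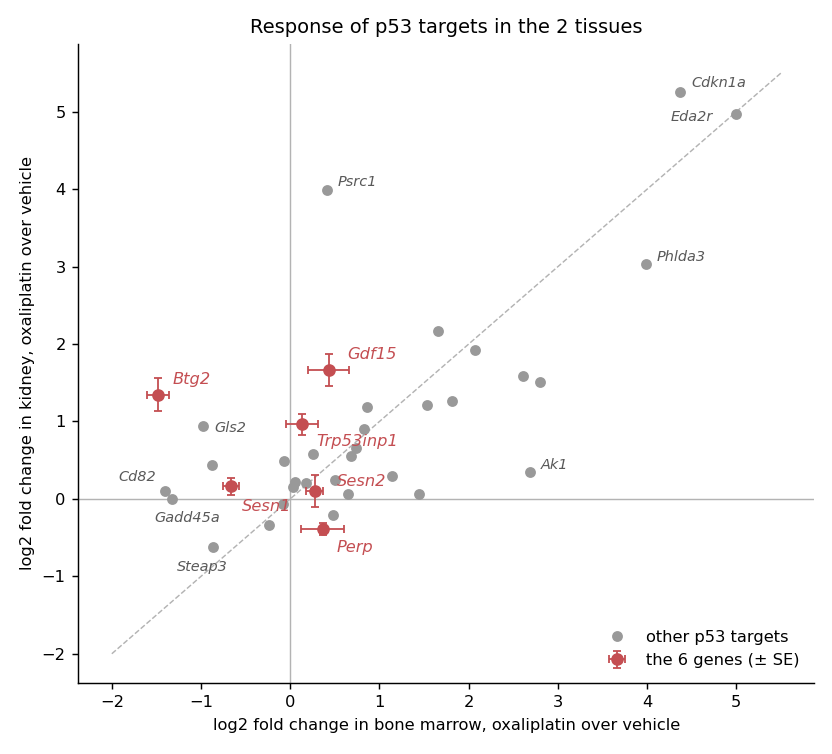
Log2 fold change (oxaliplatin over vehicle) in bone marrow on the x axis and in kidney on the y axis for the 6 genes (red, ± SE) and 32 other p53 targets (grey), with a dashed line where both are equal. Btg2 stands at the far upper left (-1.48 and 1.34), while Cdkn1a and Eda2r rose strongly in both tissues.

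In vehicle mice the tissues already differed in all but 1 of the genes. The choice of genes did not use this comparison, but it did use the same vehicle libraries as controls. Perp was 38.3-fold higher in kidney (log2 difference 5.26 ± 0.172, edgeR quasi-likelihood test, adjusted p = 3.73e-18) and Sesn2 was 3.68-fold higher there (1.88 ± 0.158, edgeR adjusted p = 1.73e-10). Btg2 was 8.97-fold lower in kidney (-3.16 ± 0.177, edgeR adjusted p = 8.29e-14). Trp53inp1 was 3.35-fold lower (-1.74 ± 0.164, edgeR adjusted p = 1.2e-09) and Sesn1 2.87-fold lower (-1.52 ± 0.102, edgeR adjusted p = 2.4e-12). In each of these 5 genes all 5 libraries of one tissue were on the same side of all 5 of the other. For Gdf15 the difference was 0.43 ± 0.235 (edgeR adjusted p = 0.0951). It was not called under any alternative, but its size depended on the processing, from 0.01 with scaling by library size alone to 0.96 with a Y-linked covariate, and adjusted p ran from 0.0513 to 0.973. Y-linked genes summed to 82.3 to 106 CPM in vehicle kidney and 156 to 173 CPM in vehicle marrow, each scaled within its tissue. That covariate was thus not separate from tissue. Called differences between the vehicle tissues were usual, at 72.9% of 24321 genes.

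Levels of different genes were compared per kilobase of annotated exon, as RPKM (CPM divided by exon length in kilobases) on 1 scale for all 20 libraries. In vehicle bone marrow the order was Btg2 (60.1 ± 6.86 RPKM, SD, n = 5), Trp53inp1 (16.3 ± 1.74), Sesn1 (13.9 ± 1.2), Sesn2 (8.5 ± 0.273), Gdf15 (5.34 ± 1.05) and Perp (1.15 ± 0.219). Only Trp53inp1 and Sesn1 overlapped among neighbours. In vehicle kidney the order was Perp (44.1 ± 4.65 RPKM), Sesn2 (31.3 ± 8.49), Gdf15 (7.2 ± 0.937), Btg2 (6.7 ± 0.613), Trp53inp1 (4.85 ± 0.92) and Sesn1 (4.85 ± 0.172). The gap between Sesn2 and Gdf15 was the only one there that no library crossed, and each of the other neighbours overlapped.

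After oxaliplatin, the gap in Btg2 level between the tissues was small. Treated marrow held 22.3 RPKM (19.0 to 27.2) and treated kidney libraries lay between 11.2 and 22.5 RPKM, overlapping it, and the log2 difference of kidney over marrow was -0.39 ± 0.162 in place of -3.16 ± 0.177 with vehicle. The tissue gap in Perp went from 5.26 to 4.47 and that in Trp53inp1 from -1.74 to -0.96. Gdf15 stood at 22.8 ± 6.85 RPKM in treated kidney and 7.54 ± 2.66 RPKM in treated marrow, a log2 difference of 1.60 ± 0.233. These gaps restate the difference of responses on the scale of levels.

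**Figure D3:**
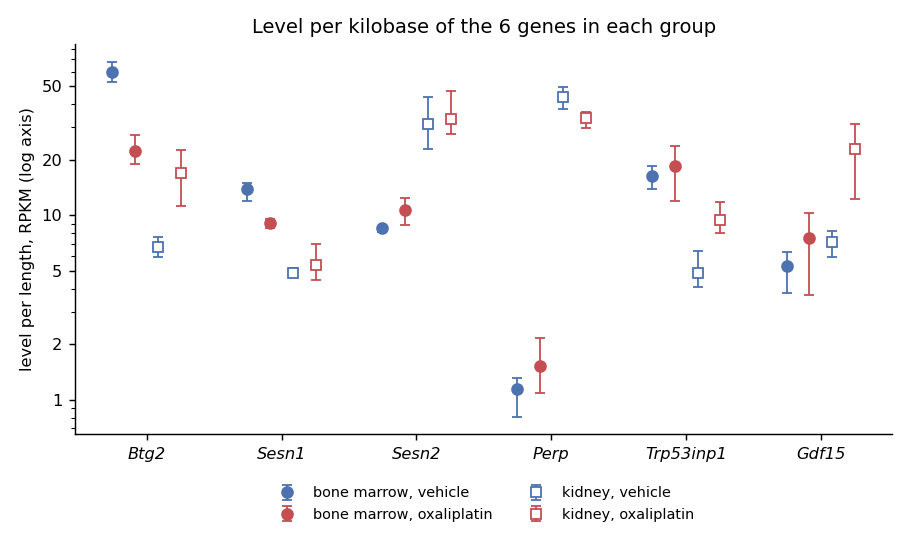
Mean level per kilobase of exon in RPKM on a log axis for each gene and group, with whiskers from the lowest to the highest of 5 libraries (filled circles, bone marrow, and open squares, kidney). Btg2 levels of the 2 tissues meet after oxaliplatin, whereas those of Perp stay far apart (1.53 RPKM in treated marrow and 33.7 RPKM in treated kidney).

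Other p53 targets were counted beside these 6 genes. Their list leaves out the 6, which were set apart for diverging between tissues, so its counts by direction are not those of p53 targets at large. Of 32 listed targets, 17 rose and 5 fell in bone marrow (median log2 fold change 0.66, against -0.04 over all genes tested), and 13 rose and 1 fell in kidney (0.52 against 0.02). Of all genes tested, 11.6% were called higher and 11.8% lower in bone marrow, and 7.68% higher and 3.81% lower in kidney. In both tissues, 12 of the 32 rose and 1, the iron reductase gene Steap3, fell. Called changes of opposite direction were found in 0 of the 32 by edgeR (2 at an unadjusted p under 0.05 in each tissue, Gls2 and Pidd1) and in 1, Gls2, by DESeq2. Pidd1, which encodes the scaffold of a caspase-activating complex, was lower in all 5 treated marrows than in any control (-0.87 ± 0.131, edgeR adjusted p = 2.04e-04) and higher in all 5 treated kidneys (0.44 ± 0.119, edgeR adjusted p = 0.00995, under 1.5-fold). Its difference of responses was 1.25 ± 0.188 (edgeR adjusted p = 2.61e-05), so it shared the non-overlapping, opposite pattern of Btg2. The tumour suppressor effector Cdkn1a, the cyclin-dependent kinase inhibitor p21, rose in bone marrow (log2 fold change 4.37 ± 0.179, edgeR adjusted p = 1.3e-08) and in kidney (5.25 ± 0.306, edgeR adjusted p = 7.2e-06). The death receptor family gene Eda2r rose by 4.99 ± 0.424 in bone marrow and 4.98 ± 0.226 in kidney. Its vehicle libraries held only 4 to 19 counts in bone marrow and 4 to 10 in kidney. Mdm2, the ubiquitin ligase that removes p53, was higher by 0.26 in bone marrow (edgeR adjusted p = 0.0301) and by 0.58 in kidney (edgeR adjusted p = 2.29e-05), both short of 1.5-fold. Transcripts of p53 itself differed by -0.004 in bone marrow and 0.11 in kidney, and neither was called.

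Several of these other targets also responded unequally. The difference of responses was called for 12 of the 32, beside 23.7% of the 24321 genes tested. Of the 12, 5 had the higher log2 fold change in kidney and 7 had it in bone marrow. Psrc1, a spindle protein gene, rose 15.9-fold in kidney and gave a log2 fold change of 0.41 in bone marrow (edgeR adjusted p = 0.0718), a difference of 3.52 ± 0.353 (edgeR adjusted p = 1.37e-07). Adenylate kinase Ak1 rose 6.44-fold in bone marrow and gave 0.34 in kidney, a difference of -2.41 ± 0.261 (edgeR adjusted p = 3.96e-07). Gls2, a mitochondrial glutaminase, had opposite signs too, with -0.97 ± 0.266 in bone marrow (edgeR adjusted p = 0.0124) and 0.94 ± 0.357 in kidney, where the groups overlapped (edgeR adjusted p = 0.0567). Its difference was 1.85 ± 0.447 (edgeR adjusted p = 0.0031), at levels of no more than 3.45 CPM in any library. The growth arrest gene Gadd45a and the tetraspanin gene Cd82 fell in bone marrow by 1.33 and 1.40 on the log2 scale, with kidney values of 0.002 and 0.10. Cdkn1a itself gave a difference of 0.82 ± 0.318 (edgeR adjusted p = 0.0564).

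Relatives of the 6 genes were examined next. Sesn3, the third sestrin and a FOXO target, was lower in all 5 treated marrows than in any control (log2 fold change -0.45 ± 0.0982, edgeR adjusted p = 0.00336) and higher in all 5 treated kidneys (0.31 ± 0.0662, edgeR adjusted p = 0.0022). Both changes were under 1.5-fold, and their difference was called (0.69 ± 0.125, edgeR adjusted p = 2.02e-04). Btg1, the nearest relative of Btg2, gave -0.31 ± 0.172 in bone marrow (edgeR adjusted p = 0.196) and 0.09 ± 0.0743 in kidney (edgeR adjusted p = 0.403). Of 12 BTG, TOB and deadenylase genes tested, edgeR called 1 in bone marrow, the poly(A)-binding protein gene Pabpc1 (-1.11), and DESeq2 called 2, with Prmt1 higher. In kidney 0 were called by edgeR or DESeq2 (3 at an unadjusted p under 0.05). Over all genes tested, edgeR called 23.3% in bone marrow and 11.5% in kidney. Trp53inp2, the relative of Trp53inp1, gave 0.17 in bone marrow and -0.12 in kidney, and neither was called.

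Of all genes tested, 23.3% were called in bone marrow and 11.5% in kidney, the shares to set beside each list that follows. Among 17 GATOR, mTORC1 and AMPK genes through which sestrins act, edgeR called 2 in bone marrow and 1 in kidney. Prkaa2 rose (1.03) and Nprl3 fell (-1.02) in bone marrow, and Mtor fell (-0.90) in kidney. The 5 tetraspan genes of the PMP22 family, related to Perp, included 3 that rose in bone marrow, Emp1 (2.12), Pmp22 (1.43) and Tmem47 (1.35), and 2 that rose in kidney, Tmem47 (0.85) and Emp1 (0.61). Of the epithelial junction genes, 3 rose and 2 fell of 10 in bone marrow and 1 rose of 14 in kidney, while Perp was lower there. For the GDF15 pathway, Gfral had at most 3 counts in every kidney library, and the coreceptor gene Ret rose in kidney (2.64) and in bone marrow (1.78). Among 15 autophagy genes, 2 rose in bone marrow, Map1lc3a (0.83) and Gabarapl1 (0.73), and 2 fell, Gabarapl2 (-0.83) and Ulk1 (-0.81), while Map1lc3a was the 1 that fell in kidney (-0.63).

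Genes upstream of the 6, and genes that share their other regulators, gave mixed counts. The shares called over all genes tested were 23.3% in bone marrow and 11.5% in kidney. Of 10 genes for p53 and its regulators, 0 rose and 3 fell in bone marrow, the phosphatase gene Ppm1d (-1.03), the kinase gene Chek2 (-0.96) and Usp7 (-0.94), and 0 were called in kidney by edgeR or DESeq2 (1 at an unadjusted p under 0.05). ATF4 targets, which include Sesn2 and Gdf15 in other settings, rose in 7 and fell in 4 of 21 in bone marrow and rose in 3 of 20 in kidney. Trib3 rose in both (1.58 and 1.28), and Ppp1r15a fell most in bone marrow (-2.27). Immediate early genes rose in 5 of 14 in bone marrow, led by Egr2 (2.51) and Egr1 (1.42), and in 2 of 12 in kidney, Nr4a1 (2.05) and Junb (0.85). FOXO genes and targets rose in 5 and fell in 4 of 14 in bone marrow, where Foxo3 (-1.28) and Foxo4 (-1.32) fell, and Foxo3 was the 1 of 13 that edgeR called in kidney (0.59), close to the 1.5-fold limit, where DESeq2 called 0. NRF2 targets rose in 1 and fell in 3 of 9 in bone marrow and fell in 2 of 9 in kidney.

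The spread of the genes among mice of one group was then set against marker lists. With group means subtracted, each gene was correlated with the mean log2 CPM of 6 lists in each tissue over 10 mice, 72 relations in all, by an exact two-sided permutation test within groups. None passed adjustment over the 72 (0 relations, smallest adjusted p = 0.128), and 8 had an unadjusted p under 0.05. In bone marrow, Trp53inp1 followed the neutrophil markers with r = 0.928 (exact p = 0.00847, rho = 0.867, exact p = 0.0433, adjusted p = 0.152) and r = 0.779 without the 2 mice farthest from the median. It followed the mean of the immediate early genes as closely, with r = 0.9 (exact p = 0.00361, rho = 0.867, exact p = 0.00792, adjusted p = 0.128, and r = 0.664 without the 2 farthest). Egr1, which is in that list, ran the other way within groups, with r = -0.705 to Trp53inp1. Against the ATF4 targets, Trp53inp1 gave r = -0.791 (exact p = 0.0303, rho = -0.709, exact p = 0.0881, adjusted p = 0.281, and r = -0.257 without the 2 farthest). Treated marrows 3 and 4, which had the lowest Trp53inp1, had neutrophil sums of 11820 and 14070 CPM against 26010 to 33030 CPM in the other treated mice and 22600 to 27500 CPM in controls. The same mice had the highest Gdf15 of the marrow libraries, and Gdf15 followed the other p53 targets with r = 0.895 (exact p = 0.00535, rho = 0.842, exact p = 0.0034, adjusted p = 0.128; r = 0.694 without the 2 farthest). The part of any of these lists in the Trp53inp1 and Gdf15 values was not tested.

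In kidney, Btg2 followed the immediate early genes with r = 0.898 (exact p = 0.00187, rho = 0.939, exact p = 0.00125, adjusted p = 0.128; r = 0.854 without the 2 farthest). Treated kidneys 1, 2 and 5, the upper Btg2 cluster, had immediate early sums of 426.3, 715.8 and 541.4 CPM, and treated kidneys 3 and 4 had 353.2 and 311.7 CPM, within or below the vehicle range of 324.2 to 372.6 CPM. Gdf15 gave r = 0.82 with the same list in kidney (exact p = 0.0176, rho = 0.673, adjusted p = 0.211, and r = 0.464 without the 2 farthest). With the proximal tubule markers, r was 0.499 for Perp (exact p = 0.0158, rho = 0.503, adjusted p = 0.211). For Sesn2 it was -0.563 (exact p = 0.0312, rho = -0.576, adjusted p = 0.281). Without the 2 farthest mice these were 0.356 and -0.22. The part of these lists in the Btg2, Gdf15, Perp and Sesn2 values was not tested. With group means subtracted, r with the late erythroid markers in bone marrow was 0.0114 for Btg2 and 0.154 for Sesn1. With the B cell markers there it was -0.52 for Btg2 and 0.153 for Sesn1 (smallest unadjusted exact permutation p of these = 0.193). For Btg2 and Sesn1 in bone marrow, where late erythroid and B cell sums dropped in every treated mouse, the part of those cell types in the lower levels was not tested.

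**Figure D4:**
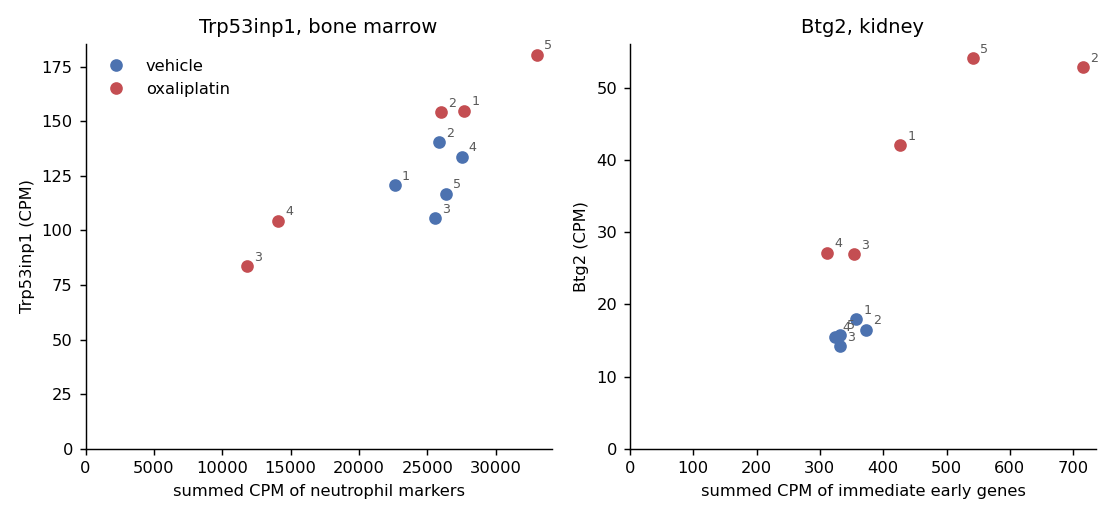
Left, Trp53inp1 (CPM) against the summed CPM of 14 neutrophil markers in bone marrow, and right, Btg2 (CPM) against the summed CPM of immediate early genes in kidney, with 1 point per mouse and the mouse number beside it. Treated marrows 3 and 4 are lowest on both axes on the left, and on the right treated kidneys 1, 2 and 5 are highest on both axes.

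Among themselves the 6 genes did not move as a unit. Within groups, 10 of 15 pairs in bone marrow and 8 of 15 in kidney had a positive r over 10 mice, with medians of 0.255 and 0.0176. The pairs at the ends in bone marrow were Btg2 with Perp (0.807) and Trp53inp1 with Gdf15 (-0.799), and in kidney Btg2 with Gdf15 (0.683) and Sesn2 with Perp (-0.637). The pairs share library and scaling, and these values are a description.

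By likeness of profile over all 20 libraries, with genes of a mean log2 CPM of at least 1, Btg2 was nearest to Sp4 (r = 0.972), Cic (0.958) and Cyth3 (0.948). Sesn1 was nearest to Slc43a1 (0.985), Arid2 (0.983) and 1300017J02Rik (0.983), and Sesn2 to Cry2 (0.981), Etfbkmt (0.98) and Slc6a6 (0.978). Perp was nearest to Tcn2 (0.998), Glud1 (0.997) and Aktip (0.997). Trp53inp1 was nearest to Fosl2 (0.963), Gm49759 (0.963) and P2ry14 (0.962), and Gdf15 to Acsf2 (0.926), Loxl1 (0.908) and P3h3 (0.886). These profiles take in differences between tissues, between treatments and between libraries. With group means subtracted, the nearest genes over 10 libraries were others, such as Cdkn1b (0.989) for Trp53inp1 and Zkscan6 (0.96) for Btg2 in bone marrow, and Kat8 (0.976) for Btg2 and Srek1ip1 (0.929) for Gdf15 in kidney.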

How the data were processed

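For each tissue the authors deposited a table of counts, whole numbers without normalization, from reads aligned with STAR and counted in Partek Flow by the paper's methods; the submitters' processing notes also name featureCounts and Salmon. The methods and the labels describe different library chemistry, and the use of strand in counting is not given in the sources used here. The tables held 55774 lines each, of which 287 repeated a gene and 1 had a missing value, leaving 55486 genes. Groups came from sample titles. Genes were filtered with filterByExpr (minimum count 10), TMM-scaled and fitted in R 4.3.3 with edgeR 4.0.16 (limma 3.58.1, robust quasi-likelihood, two-sided tests, Benjamini-Hochberg adjustment), in each tissue alone and in 1 fit of 4 groups for the tissue comparison and the difference of responses. The steps were tested on simulated data. The 6 genes and all lists were chosen with earlier results of these data known.

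Named genes were the 6 genes, Cdkn1a, Mdm2 and Trp53, up to 4 called genes of a list with the largest change, and the 3 genes nearest in profile. Sesn3, Btg1 and Trp53inp2 were named as relatives, and Gadd45a, Gls2, Cd82, Steap3, Pidd1, Ak1, Junb, Prmt1 and Gfral after their values were seen. Alternatives were DESeq2 1.42.0, other scalings and filters, a 2-fold limit, a replicate block and each library left out. Others were a covariate of Y-linked reads, hemoglobin genes left out, and tissue responses taken from the fit of all 20 libraries. In the main fits, libraries were not paired by replicate number. P-values measure the spread between these 5 libraries a group.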

Additional observations from a re-analysis of the deposited data

Results flagged for a closer look

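In treated kidney, Sesn2 of mouse 5 (145.0 CPM) lay far from the nearest of the other 4 (100.3 CPM), a gap of 0.742 of the group's range against a limit of 0.71. It was the 1 such library among 24 groups of 5 checked, and chance alone marks about 1 group in 20.

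The response of Btg2 differed between tissues with every mouse on its own side, by 2.77 on the log2 scale (kidney minus bone marrow). The gene was chosen for that difference, so its value is a description and carries no weight as a test. Among the 32 other p53 targets, edgeR's test of the difference called Psrc1 (3.52), Gls2 (1.85), Cd82 (1.44), Gadd45a (1.27) and Pidd1 (1.25) with the higher log2 fold change in kidney. It called Ak1 (-2.41), Dcxr (-1.44), Zmat3 (-1.36), Phlda3 (-1.03), Pmaip1 (-0.90), Tigar (-0.75) and Ei24 (-0.64) with the higher log2 fold change in bone marrow.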

How the results depend on the processing

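Of 165 values of whole comparisons under an alternative, 160 kept within 1.5 times the reported value. A limit of 2-fold left 3231 called genes in bone marrow (5221 at 1.5-fold), 941 in kidney (2216) and 3529 for the difference of responses (5759), and 14 of the other p53 targets in bone marrow (22). Asking for at least 10 counts in every library left 10089 genes called between vehicle tissues (17733), with fewer genes tested. Of 558 values of the 6 genes, 554 kept their sign and either moved by less than the SD between mice or, for the tested vehicle comparison, kept their call. By ratio, 30 of the 558 log2 values moved by over 1.5 times, most of them close to 0: Trp53inp1 in bone marrow (0.02 to 0.28, reported 0.13), Sesn2 in kidney, in bone marrow and in the difference (-0.39 to -0.08), Sesn1 in kidney (0.06 to 0.30), Perp in both tissues, and Gdf15 between vehicle tissues (0.01 to 0.96). Sesn2 in kidney, 0.10 with all libraries, ranged from -0.0533 without kidney oxaliplatin mouse 5 to 0.251 without kidney vehicle mouse 1. Scaling by library size alone moved Sesn1 in bone marrow to -0.51, under 1.5-fold, Sesn2 in bone marrow to 0.42 and Perp in kidney to -0.25. It shifted the median of all genes from -0.04 to 0.11 in bone marrow and from 0.02 to 0.16 in kidney, and the calls from 2589 higher and 2632 lower to 3431 and 1984 in bone marrow and from 1481 and 735 to 2245 and 470 in kidney. Every other direction of the 6 genes was the same under each alternative run. Leaving out single libraries gave 4725 to 5727 calls in bone marrow, 1761 to 2424 in kidney, 5143 to 6471 for the difference and 17672 to 18146 between vehicle tissues.

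Libraries of the same replicate number shared little deviation by the median (median r of -0.087 to 0.023 over 5 pairs and 14069 genes in each of 4 pairings). Single pairs reached r = 0.286 between vehicle and oxaliplatin marrow and 0.161 between oxaliplatin kidney and marrow. Such values cannot tell whether 2 libraries came from 1 mouse. A replicate block gave 4968 calls in bone marrow, 2017 in kidney, 5350 for the difference and 17485 between vehicle tissues. In the block fit 22, 15 and 12 of the other p53 targets were called in bone marrow, kidney and the difference. DESeq2 called 5613, 2391, 6418 and 17909. Perp in bone marrow rested on 58 to 171 counts a library, and Gls2, Psrc1, Eda2r and Ret on as few as 4 counts in vehicle kidney.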
